A study of Mus musculus with 6 samples.

Results

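The 3 D-type cyclin genes (Ccnd1, Ccnd2 and Ccnd3), the genes of their kinase partners (Cdk4 and Cdk6) and 5 genes of inhibitors of cyclin-dependent kinases (Cdkn1a, Cdkn1b, Cdkn1c, Cdkn2a and Cdkn2b) were followed in poly(A) RNA-seq libraries of primary mouse chondrocytes. They were taken by gene symbol, which found 10 of the 55401 genes in the deposited table, and all 10 passed the filter on low counts. The libraries formed 2 groups, Nf2-knockout (3 libraries) and control (3 libraries). Per the labels, both groups were primary chondrocytes from cartilage, and the series describes both as carrying floxed Nf2 and as cultured with differentiation. The sources used here do not say how the floxed allele was recombined, how old the mice were or whether replicates were separate animals or cultures, so the p-values cover no more than the variation among these 6 libraries, part or all of which may be technical. As treatment, the label of each Nf2-knockout library gives TCF21 overexpressing, which the titles do not mention, and the groups here follow the titles.

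D-type cyclins bind CDK4 or CDK6 in the G1 phase, and the active kinase phosphorylates the retinoblastoma protein and its relatives, which releases E2F transcription factors to switch on the genes of DNA replication. Inhibitors of the INK4 family (from Cdkn2a, Cdkn2b, Cdkn2c and Cdkn2d) bind CDK4 and CDK6 and keep D cyclins from joining them, whereas the CIP/KIP inhibitors (from Cdkn1a, Cdkn1b and Cdkn1c) bind cyclin-CDK complexes and block mainly CDK2. In growth plate cartilage, cyclin D1 is a gene of proliferating chondrocytes, and Cdkn1c, which encodes p57, is known for the exit from the cell cycle before hypertrophy.

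Library totals ran from 50906043 to 63748798 counts. Between 0.3237% and 0.3817% of the counts in Nf2-knockout libraries and between 0.2166% and 0.2496% in control libraries fell on the 10 genes. Nf2 itself was lower in Nf2-knockout libraries (95.3 ± 6.59 CPM) than in control libraries (126.8 ± 5.32 CPM; SD, n = 3 each), with a log2 fold change of -0.41 (SE 0.0866, adjusted p = 0.0305 by edgeR), a call that none of the 6 fits without 1 library kept. Tcf21 had 0, 2 and 0 counts in Nf2-knockout libraries, against 0, 0 and 0 counts in control libraries. CPM values are counts scaled to library size by TMM, a positive log2 fold change means higher in Nf2-knockout libraries, and a gene is said to have risen or fallen where edgeR's quasi-likelihood test gave a Benjamini-Hochberg adjusted p under 0.05 over the 18218 genes tested. Of the 14 chondrocyte markers, all were detected, and their summed level was 1030 to 1930 CPM in Nf2-knockout libraries, against 860 to 1270 CPM in control libraries. Of them 1 rose and 1 fell (4.11% and 5.18% of all genes tested). Positive values were found for 7 of the 14, and the median log2 fold change was -0.098. Col2a1 was the marker that rose, at 581 ± 223 CPM in Nf2-knockout libraries, against 231 ± 50.7 CPM in control libraries (adjusted p = 0.0446, kept in 1 of 6 fits). Acan (-0.63) and Sox9 (-0.36) had negative values that did not pass. Of 7 osteoblast markers, 0 changed by edgeR (2 at an unadjusted p under 0.05, against 24.8% of all genes tested). Over the alternative tools and settings, Dmp1 was the 1 of these markers that passed, in 2 of 7. Col1a1, the broadly expressed type I collagen gene, made up nearly all of their sum at 2945 ± 275 CPM in Nf2-knockout libraries, against 2932 ± 531 CPM in control libraries, and the osteoblast factor gene Sp7 was at 0.541 ± 0.331 CPM in Nf2-knockout libraries, against 0.393 ± 0.172 CPM in control libraries.

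Among the 10 genes, most of those that rose in Nf2-knockout libraries were cyclin and kinase genes, with 1 inhibitor gene beside them. Ccnd1 was 3.90-fold, Cdk6 1.66-fold, Cdkn2b 1.48-fold and Ccnd2 1.32-fold the control level. Of the 10 genes, 4 rose (Ccnd1, Ccnd2, Cdk6 and Cdkn2b) and 0 fell, by edgeR, DESeq2 also called 4, and at an unadjusted p under 0.05 edgeR had the same number, 4. Over all genes tested, 4.11% rose and 5.18% fell by edgeR, and 6.42% rose and 6.86% fell (13.3% in all) by DESeq2. An unadjusted p under 0.05 by edgeR was found for 24.8% of all genes tested. The median log2 fold change was 0.28 over the 10 genes and -0.01 over all genes tested. Leaving out 1 library at a time kept the calls of Ccnd1 and Cdk6 in 6 of 6 fits and those of Ccnd2 and Cdkn2b in 1 of 6. Those fits called fewer genes in general: 3.33%, 6.29% and 3.96% of genes without Nf2-knockout replicates 1, 2 and 3, and 5.16%, 3.73% and 6.17% without control replicates 1, 2 and 3. In a mixed culture, a change in the number of cells that carry a transcript and a change in RNA per cell cannot be told apart.

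**Figure D1:**
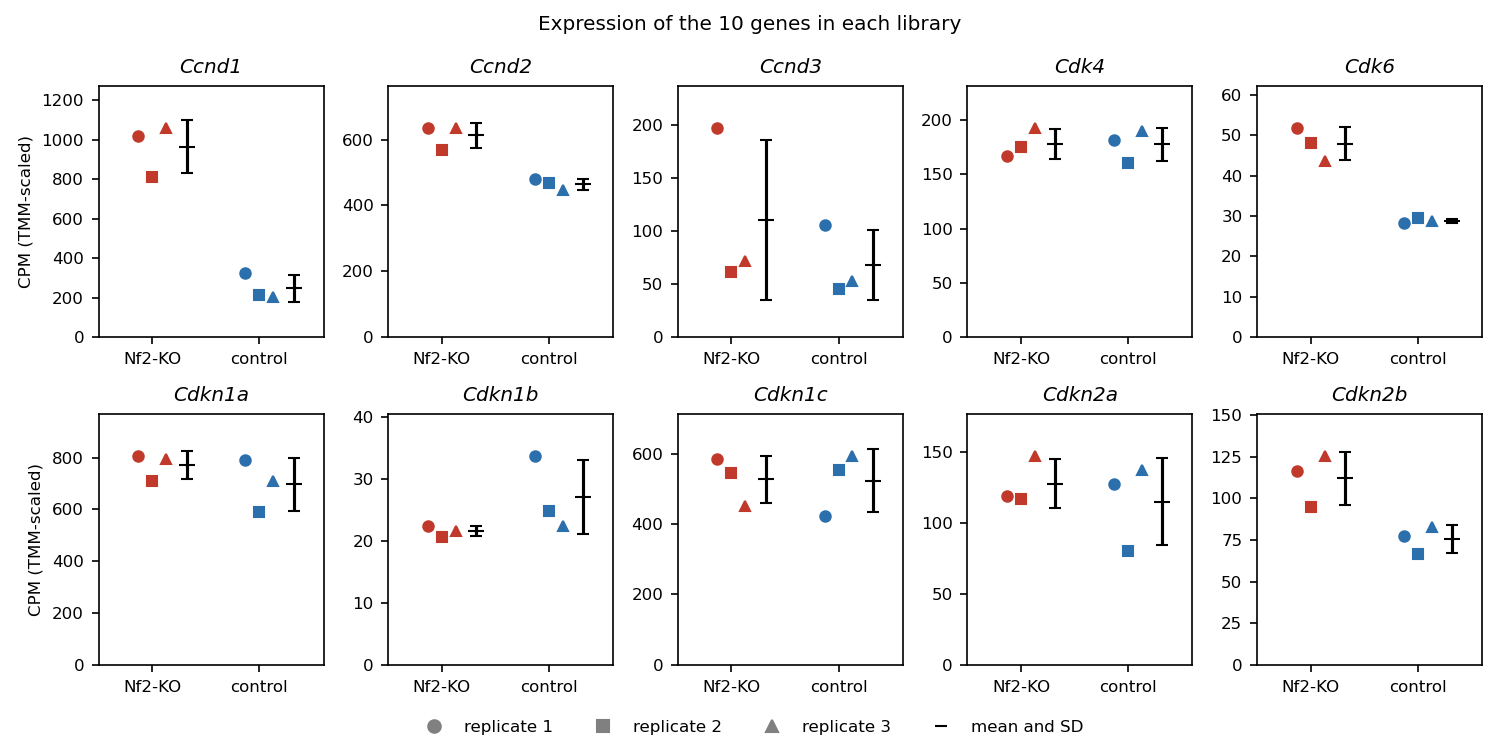
Expression of each of the 10 genes in CPM (vertical axes, linear from 0, scaled separately) in the 3 Nf2-knockout (red) and 3 control (blue) libraries, with replicate numbers as marker shapes and mean ± SD in black. For Ccnd1, Ccnd2, Cdk6 and Cdkn2b every Nf2-knockout library lies above every control library; Ccnd3 has 1 high library in each group.

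Ccnd1, which encodes cyclin D1, showed the largest fold change of the 10 genes. The Nf2-knockout libraries (replicates 1 to 3) had 53366, 51179 and 70844 counts of Ccnd1, and the control libraries had 19376, 11518 and 11510. Scaled to CPM these were 1022, 811 and 1061 in Nf2-knockout libraries, against 327, 214 and 202 in control libraries. The lowest Nf2-knockout library was thus well above the highest control library, and control replicate 1 stood above the other control libraries. Ccnd1 averaged 964 ± 134 CPM in Nf2-knockout libraries, against 247 ± 69.0 CPM in control libraries, a log2 fold change of 1.96 (SE 0.210, adjusted p = 0.00442), or 3.90-fold with a 95% interval from 2.77-fold to 5.49-fold. Without control replicate 1 the log2 fold change was 2.22, the highest of the fits that left out 1 library, and the lowest was 1.84. Ccnd1 (ENSMUSG00000070348) lies on the minus strand of chromosome 7, 144929931 to 144939925 (GRCm38), where 23.36% of its exon bases overlap LTO1 on the opposite strand. LTO1 had 635, 651 and 1056 counts in Nf2-knockout libraries, against 410, 394 and 486 counts in control libraries, few beside those of Ccnd1.

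Ccnd2, the cyclin D2 gene, rose by less and was the least variable D cyclin. It stood at 634, 567 and 635 CPM in Nf2-knockout libraries, against 479, 468 and 445 CPM in control libraries. The groups did not overlap, and each spanned a narrow range. Ccnd2 (ENSMUSG00000000184) lies on the minus strand of chromosome 6, 127125162 to 127152193. Its means were 612 ± 39.0 CPM in Nf2-knockout libraries, against 464 ± 17.1 CPM in control libraries, a log2 fold change of 0.40 (SE 0.0849, adjusted p = 0.0315), or 1.32-fold with an interval from 1.15-fold to 1.52-fold. With 1 library left out the log2 fold change lay between 0.37 and 0.46 and the adjusted p between 0.0425 and 0.105, under 0.05 in the fit without Nf2-knockout replicate 2 alone. The interval of Ccnd2 lay wholly below that of Ccnd1; the difference between the fold changes of these genes was not tested.

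Ccnd3, the cyclin D3 gene, did not pass. It stood at 197.3, 61.4 and 72.0 CPM in Nf2-knockout libraries, against 106.0, 45.2 and 53.2 CPM in control libraries. Replicate 1 was the highest library of each group, and the other Nf2-knockout libraries lay above the other control libraries but below control replicate 1. The log2 fold change was 0.69 (SE 0.507, adjusted p = 0.461), with an interval from -0.50 to 1.89. Leaving out Nf2-knockout replicate 1 brought it to -0.01, and leaving out control replicate 1 brought it to 1.16. Ccnd3 (ENSMUSG00000034165) lies on the plus strand of chromosome 17, 47505051 to 47599689 in the deposited table.

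Within the D cyclin group the make-up of the transcripts differed between the groups. The FPKM scale divides by all exon bases of a gene. On it, Ccnd1 made up 70.7%, 71.9% and 74.8% of the summed D cyclin level in Nf2-knockout libraries, against 52.4%, 45.3% and 44.5% in control libraries. Ccnd2 made up 23.2% ± 1.74 of that sum in Nf2-knockout libraries, against 45.8% ± 6.32 in control libraries, although its own level was higher in Nf2-knockout. In control libraries Ccnd1 and Ccnd2 were at about one level, 45.6 ± 12.98 and 42.8 ± 1.83 FPKM, with overlapping ranges. In Nf2-knockout libraries Ccnd1 was at 190.9 ± 27.6 FPKM and Ccnd2 at 60.6 ± 4.14 FPKM, with ranges apart. The summed level of the 3 cyclins was 284.3, 222 and 283.3 FPKM in Nf2-knockout libraries, against 115.5, 87.1 and 83.0 FPKM in control libraries. These shares and sums are descriptions and were given no test. They also depend on the length used. Per kilobase of the longest protein-coding transcript, Ccnd1, Ccnd2 and Ccnd3 averaged 257.8, 96.7 and 52.2 CPM in Nf2-knockout libraries. In control libraries they averaged 66.1, 73.3 and 32.2 CPM, so Ccnd3 had a larger part and Ccnd1 was below Ccnd2.

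**Figure D2:**
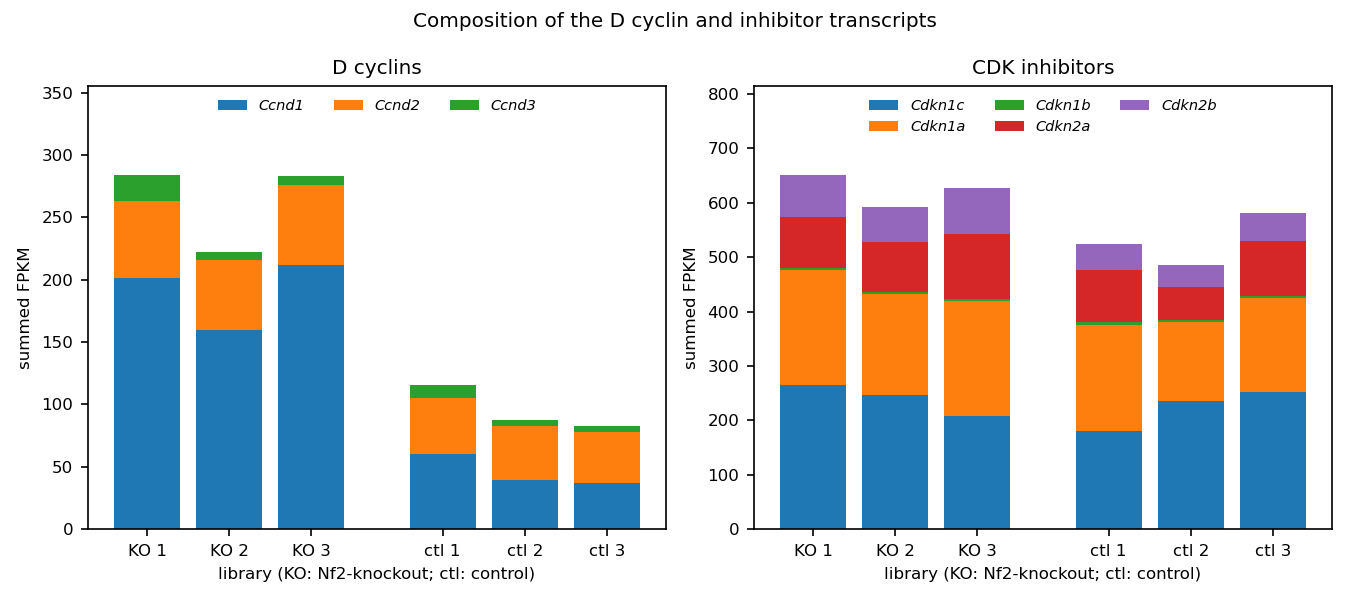
Summed FPKM (vertical axes, linear from 0) of the 3 D cyclin genes (left) and the 5 inhibitor genes (right) in each library, Nf2-knockout libraries to the left of control libraries, with 1 colour per gene. Ccnd1 fills 70.7% to 74.8% of the D cyclin bar in Nf2-knockout libraries, against 44.5% to 52.4% in control libraries, whereas the inhibitor bars differ less.

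Of the kinase genes, Cdk6 rose and Cdk4 did not. Cdk6 stood at 51.9, 48.1 and 43.7 CPM in Nf2-knockout libraries, against 28.3, 29.4 and 28.7 CPM in control libraries. The control libraries lay within a narrow band, far below every Nf2-knockout library. Cdk6 (ENSMUSG00000040274) lies on the plus strand of chromosome 5, 3341485 to 3473180 in the deposited table. The means were 47.9 ± 4.05 CPM in Nf2-knockout libraries, against 28.8 ± 0.565 CPM in control libraries, a log2 fold change of 0.73 (SE 0.0994, adjusted p = 0.00828), or 1.66-fold with an interval from 1.42-fold to 1.96-fold, and 0.69 to 0.80 on the log2 scale with 1 library left out.

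Cdk4 stood at 166.4, 174.8 and 192.7 CPM in Nf2-knockout libraries, against 181.6, 160.6 and 190.2 CPM in control libraries. The groups overlapped almost fully, and the log2 fold change was 0.00 (SE 0.0993, adjusted p = 0.989), with an interval of the fold from 0.85 to 1.18. Cdk4 (ENSMUSG00000006728; chromosome 10, 127063534 to 127067920, plus strand) shares 19.7% of its exon bases with Tspan31 on the opposite strand, and Tspan31 had 8371 to 9953 counts in Nf2-knockout libraries, against 8831 to 9900 counts in control libraries, near those of Cdk4 itself (8689 to 12869 and 8661 to 10858). The sources used here do not say whether the libraries were stranded, so reads of the shared part cannot be assigned, and the Cdk4 level is uncertain to that extent. Per length Cdk4 was far more abundant than Cdk6, at 51.0 ± 4.32 against 3.19 ± 0.244 FPKM in Nf2-knockout libraries and 47.4 ± 3.94 against 1.79 ± 0.0342 FPKM in control libraries. Cdk6 made up 5.92% ± 0.872 of the sum of both kinase genes in Nf2-knockout libraries, against 3.65% ± 0.371 in control libraries, and the summed level, 50.9 to 58.8 FPKM in Nf2-knockout libraries, against 44.8 to 52.3 FPKM in control libraries, overlapped between the groups.

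None of the CIP/KIP inhibitor genes passed the test. Cdkn1a (ENSMUSG00000023067; chromosome 17, 29090976 to 29100727, plus strand), which encodes p21 and is a widely used p53 target, stood at 807.4, 709.1 and 795.0 CPM in Nf2-knockout libraries, against 789.8, 588.3 and 710.8 CPM in control libraries. Its ranges overlapped, and the log2 fold change was 0.15 (adjusted p = 0.536), with an interval from -0.15 to 0.44. Cdkn1c stood at 583.5, 544 and 451.3 CPM in Nf2-knockout libraries, against 421.5, 554.1 and 594.1 CPM in control libraries. Cdkn1c (ENSMUSG00000037664; chromosome 7, 143458339 to 143461050, minus strand) shares 30.65% of its exon bases with the predicted gene Gm44732 on the opposite strand, which had 15 counts or fewer in any library. Here too the groups covered one range, with a log2 fold change of 0.01 (SE 0.155, adjusted p = 0.983) and an interval from -0.36 to 0.37. These intervals leave room for changes as large as those bounds, so the genes were not shown to be equal in both groups.

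Cdkn1b (ENSMUSG00000003031; chromosome 6, 134920401 to 134925513, plus strand), which encodes p27, was the 1 gene of the 10 with a negative fold change. It stood at 22.38, 20.69 and 21.63 CPM in Nf2-knockout libraries, against 33.76, 24.87 and 22.42 CPM in control libraries. The highest Nf2-knockout library was barely below the lowest control library, and on the FPKM scale the groups overlapped. The log2 fold change of Cdkn1b was -0.33 (SE 0.163, adjusted p = 0.276), with an interval from -0.71 to 0.06, and -0.13 without control replicate 1. Over all genes tested, the CPM of the groups did not overlap for 32.9%; among the 10 genes it did not overlap for 5, 4 of them higher in Nf2-knockout (15.5% of all genes) and 1 lower (17.4% of all genes).

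**Figure D3:**
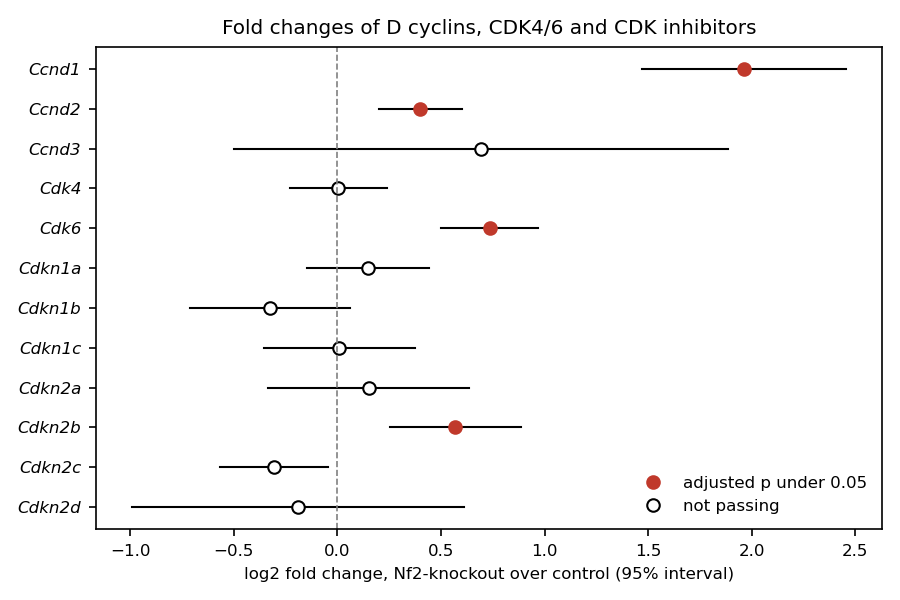
Log2 fold change of Nf2-knockout over control (horizontal axis) with its 95% interval for the 10 genes and the 2 other INK4 inhibitor genes, filled where the adjusted p was under 0.05. Ccnd1 (1.96), Cdk6 (0.73), Cdkn2b (0.57) and Ccnd2 (0.40) are filled; the interval of Ccnd3 runs from -0.50 to 1.89.

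The neighbouring INK4 genes Cdkn2b and Cdkn2a lie in a row on the minus strand of chromosome 4. Cdkn2b rose and Cdkn2a did not pass, their intervals overlapped, and the difference between their fold changes was not tested. Cdkn2b (ENSMUSG00000073802, 89306299 to 89311039, GRCm38) encodes p15. Cdkn2a (ENSMUSG00000044303, 89274471 to 89294653) has 2 starts: transcripts from the upstream one encode the p53-stabilising protein ARF, those from the other encode p16, and the deposited counts are made over the whole gene and do not separate them. The 250 bases before each of these starts are shown because these INK4 genes are neighbours and Cdkn2a has separate starts for its products, and those before the RefSeq start of Cdk6 because it is the called kinase gene. They are read 5′ to 3′ on the strand of the gene from RefSeq promoter sequences of GRCm38.p6. Capitals mark matches to any of 5 short motifs searched on both strands: GGAATG (TEAD factors), TGACGTCA (the cAMP response element, CRE), TGANTCA (AP-1), TTTNGCGC (E2F) and GGGCGG (SP1).
Cdkn2b, chr4:89311033-89311282, minus strand: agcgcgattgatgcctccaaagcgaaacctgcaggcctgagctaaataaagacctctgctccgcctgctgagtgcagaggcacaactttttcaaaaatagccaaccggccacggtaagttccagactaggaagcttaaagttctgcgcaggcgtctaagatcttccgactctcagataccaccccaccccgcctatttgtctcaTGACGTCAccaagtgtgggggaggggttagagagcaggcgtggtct
Cdkn2a, ARF start, chr4:89294620-89294869, minus strand: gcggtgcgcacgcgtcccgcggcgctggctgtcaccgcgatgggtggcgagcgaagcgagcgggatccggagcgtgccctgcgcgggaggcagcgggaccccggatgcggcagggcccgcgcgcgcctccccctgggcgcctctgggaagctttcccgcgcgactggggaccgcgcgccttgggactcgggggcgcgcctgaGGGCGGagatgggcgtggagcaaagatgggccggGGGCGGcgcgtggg
Cdkn2a, p16 start, chr4:89282193-89282442, minus strand: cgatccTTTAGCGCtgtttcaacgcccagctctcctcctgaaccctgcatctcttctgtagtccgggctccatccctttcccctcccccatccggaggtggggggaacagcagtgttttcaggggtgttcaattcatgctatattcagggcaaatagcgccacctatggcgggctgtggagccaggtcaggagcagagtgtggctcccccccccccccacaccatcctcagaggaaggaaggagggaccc
Cdk6, chr5:3343643-3343892, plus strand: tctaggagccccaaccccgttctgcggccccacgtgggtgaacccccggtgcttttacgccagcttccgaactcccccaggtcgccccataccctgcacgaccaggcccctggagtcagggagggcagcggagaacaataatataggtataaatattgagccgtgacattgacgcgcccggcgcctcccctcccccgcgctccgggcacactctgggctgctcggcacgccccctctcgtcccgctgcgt
The capitals are a CRE match 46 to 39 bases before the Cdkn2b start, which 1.55% of the 32851 promoters in the table hold, SP1 matches before the ARF start (32.7% of promoters hold at least 1) and an E2F match 244 to 237 bases before the p16 start (1.13%). The Cdk6 window holds none of these letters. It lies inside the gene as placed in the deposited table, where Cdk6 starts at 3341485, so the bases before that start were not searched. None of the 4 windows holds the TEAD or AP-1 letters, which 12.6% and 6.75% of promoters hold, and no matches overlapped each other. Of the windows searched but not shown, promoter 2 of Ccnd3 holds a TEAD match 17 to 12 bases before its start. A match in letters is not a measured binding site. Of the 10 genes, 7 were matched in the RefSeq table; Ccnd1, Ccnd2 and Cdkn1c were not.

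Cdkn2b rose. It stood at 116.1, 94.6 and 125.6 CPM in Nf2-knockout libraries, against 77.6, 66.4 and 82.7 CPM in control libraries. The groups did not overlap, though Nf2-knockout replicate 2 was not far above control replicate 3. The means were 112.1 ± 15.9 CPM in Nf2-knockout libraries, against 75.6 ± 8.36 CPM in control libraries, a log2 fold change of 0.57 (SE 0.135, adjusted p = 0.0440), or 1.48-fold with an interval from 1.19-fold to 1.85-fold. With 1 library left out the log2 fold change lay between 0.48 and 0.68 and the adjusted p between 0.0337 and 0.135, and again the fit without Nf2-knockout replicate 2 was the one that passed. It was also lost when edgeR tested genes of any count (adjusted p = 0.0565) and in limma on FPKM without a filter (0.0646) or with median-of-ratios scaling (0.0516).

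Cdkn2a stood at 119.1, 116.5 and 147.4 CPM in Nf2-knockout libraries, against 127.6, 80.1 and 137.3 CPM in control libraries. Control replicate 2 was low, and the other 5 libraries overlapped. For Cdkn2a the log2 fold change was 0.15 (SE 0.206, adjusted p = 0.712), with an interval of the fold from 0.79 to 1.55, and -0.05 without control replicate 2. The ratio of Cdkn2b to Cdkn2a on the FPKM scale was 0.822, 0.684 and 0.719 in Nf2-knockout libraries, against 0.513, 0.699 and 0.508 in control libraries, which overlapped. The other INK4 genes had negative values that did not pass. Cdkn2c, which encodes p18, averaged 34.3 ± 3.66 CPM in Nf2-knockout libraries, against 42.5 ± 2.13 CPM in control libraries without overlap (log2 fold change -0.31, SE 0.111, adjusted p = 0.140). Cdkn2d, which encodes p19 of the INK4 family, averaged 11.8 ± 3.19 CPM in Nf2-knockout libraries, against 13.5 ± 5.38 CPM in control libraries (-0.19, SE 0.342, adjusted p = 0.787).

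**Figure D4:**
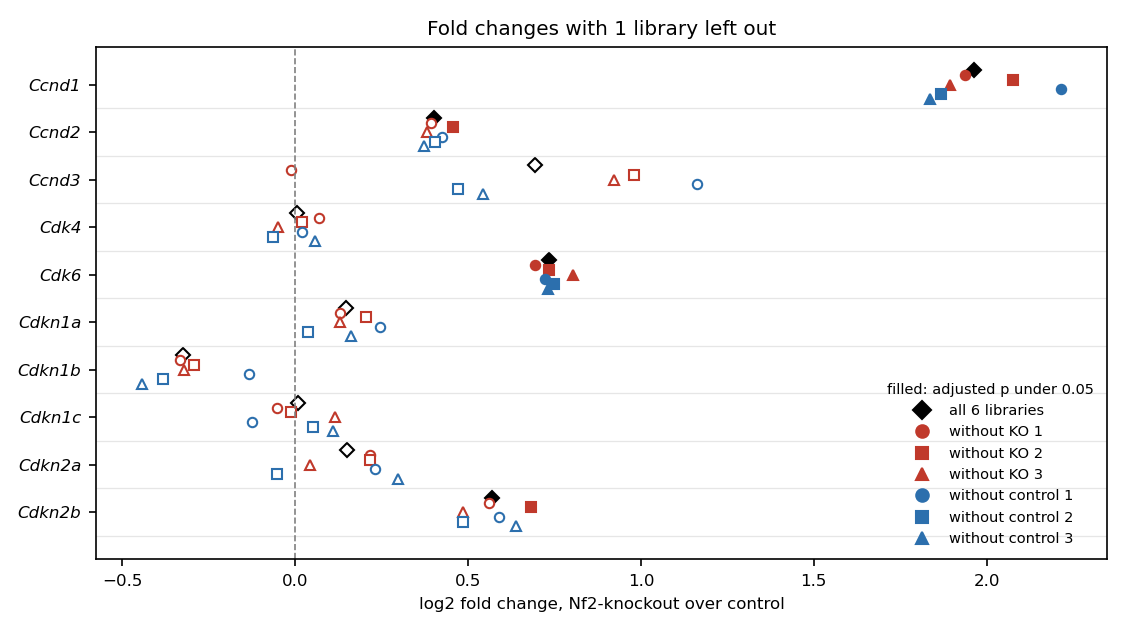
Log2 fold change of Nf2-knockout over control (horizontal axis) for each of the 10 genes with all 6 libraries (black diamonds) and with 1 library left out (red: a Nf2-knockout library; blue: a control library), filled where the adjusted p was under 0.05. Ccnd1 (1.84 to 2.22) and Cdk6 (0.69 to 0.80) are filled throughout, Ccnd2 and Cdkn2b in 1 of the 6 fits, and Ccnd3 spreads from -0.01 to 1.16.

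By level per length, inhibitor transcripts headed the order in both groups. In Nf2-knockout libraries the order of mean FPKM was Cdkn1c (240.3 ± 29.0), Cdkn1a (202.1 ± 14.8), Ccnd1 (190.9 ± 27.6), Cdkn2a (101.6 ± 14.6), Cdkn2b (75.2 ± 11.2), Ccnd2 (60.6 ± 4.14), Cdk4 (51.0 ± 4.32), Ccnd3 (11.7 ± 7.95), Cdkn1b (4.41 ± 0.179) and Cdk6 (3.19 ± 0.244). The first 3 overlapped in range, as did Cdkn2b and Ccnd2, and the other neighbours in the order did not. In control libraries the order was Cdkn1c (222.7 ± 37.4), Cdkn1a (170.2 ± 25.1), Cdkn2a (85.2 ± 22.5), Cdk4 (47.4 ± 3.94), Cdkn2b (47.2 ± 5.08), Ccnd1 (45.6 ± 12.98), Ccnd2 (42.8 ± 1.83), Ccnd3 (6.74 ± 3.31), Cdkn1b (5.15 ± 1.17) and Cdk6 (1.79 ± 0.0342). There Cdkn1c overlapped with Cdkn1a, the 4 genes from Cdk4 to Ccnd2 overlapped with their neighbours, and Ccnd3 overlapped with Cdkn1b. Ccnd1 was thus 3rd of 10 in Nf2-knockout and 6th of 10 in control libraries. The deposited FPKM divides by all exon bases of a gene, which understates genes with many long minor transcripts: per kilobase of the longest protein-coding transcript, Cdkn1a came before Cdkn1c in both groups. The summed level of the 5 inhibitors was 2.29, 2.67 and 2.21 times that of the D cyclins in Nf2-knockout libraries, against 4.54, 5.58 and 6.997 times in control libraries.

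Among the genes with the most similar profiles over the 6 libraries were, for Ccnd1, the small GTPase gene Rab3b and Rrm2, the gene of a ribonucleotide reductase subunit. Likeness was the root mean square difference between log2 CPM values centred on each gene's mean, and among the 12092 tested genes compared it was 0.102 for Rab3b and 0.176 for Rrm2. For Cdk6 they were Prss23 (0.0317), Slc35e4 (0.0551) and the actin crosslinker gene Actn1 (0.0564), and for Cdkn2b they were G6pdx (0.0320), Gmnn, which encodes the replication licensing inhibitor geminin (0.0552), and Atic (0.0609). The genes nearest to Ccnd3 were the small nucleolar RNA gene Snord14e (0.194) and the predicted genes Gm10252 (0.277) and Gm5539 (0.291), all high in replicate 1 of both groups as Ccnd3 was. The nearest gene of each of the other genes was Plp2 (0.0290) for Ccnd2, Ints9 (0.0173) for Cdk4, Ccnh (0.0379) for Cdkn1a, Fech (0.0353) for Cdkn1b, Pla2g15 (0.0399) for Cdkn1c and Pea15a (0.0760) for Cdkn2a. These values describe 6 libraries that share the contrast between groups.

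In the lists of genes downstream of the D cyclins, every gene that changed by edgeR was higher in Nf2-knockout libraries. The pocket protein genes did not pass. Values of the genes that did not pass went both ways. Over all genes tested, 9.29% changed in either direction and 24.8% had an unadjusted p under 0.05. Of 5 genes of cyclin E, cyclin A and CDK2, 1 rose and 0 fell by edgeR (3 at an unadjusted p under 0.05, and 2 changed by DESeq2), at a median log2 fold change of 0.65. Ccne1, the cyclin E1 gene, averaged 29.3 ± 2.54 CPM in Nf2-knockout libraries, against 16.4 ± 0.920 CPM in control libraries (log2 fold change 0.84, adjusted p = 0.00825). Ccna2, the cyclin A2 gene, stood at 21.7 ± 2.70 CPM in Nf2-knockout libraries, against 11.5 ± 3.56 CPM in control libraries and narrowly did not pass (0.92, adjusted p = 0.0514). Of the 3 pocket protein genes, 0 changed by edgeR (2 at an unadjusted p under 0.05, and 1 by DESeq2). Rbl2, which encodes p130, had a log2 fold change of -0.53 (adjusted p = 0.0536), Rb1 one of -0.42 (adjusted p = 0.156) and Rbl1 one of 0.21 (adjusted p = 0.507).

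The lists of this paragraph stand beside 4.11% of all genes tested that rose and 5.18% that fell. Of 10 E2F and DP factor genes, 2 rose and 0 fell, at a median of 0.26. E2f7, which encodes a repressive E2F, rose to 4.42 ± 0.393 CPM in Nf2-knockout, against 1.55 ± 0.520 CPM in control libraries (log2 fold change 1.52, adjusted p = 0.0229, kept in 1 of 6 fits without 1 library). E2f6, another repressive E2F, rose by 0.73 on the log2 scale (adjusted p = 0.0126, kept in 6 of 6), and E2f1, an activating one, had a value of 0.29 (adjusted p = 0.0990). Of 20 E2F-driven genes of the G1 to S step, 10 rose and 0 fell, at a median of 0.58. Rrm2 rose to 327 ± 33.5 CPM in Nf2-knockout, against 99.5 ± 34.0 CPM in control libraries (1.72, adjusted p = 0.00823), Uhrf1, a reader of hemimethylated DNA, by 1.15, and the helicase subunits Mcm5 and Mcm2 by 0.95 and 0.90. With 1 library left out, the number that rose was 5, 4 and 4 for Nf2-knockout replicates 1, 2 and 3 and 7, 4 and 5 for control replicates 1, 2 and 3.

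**Figure D5:**
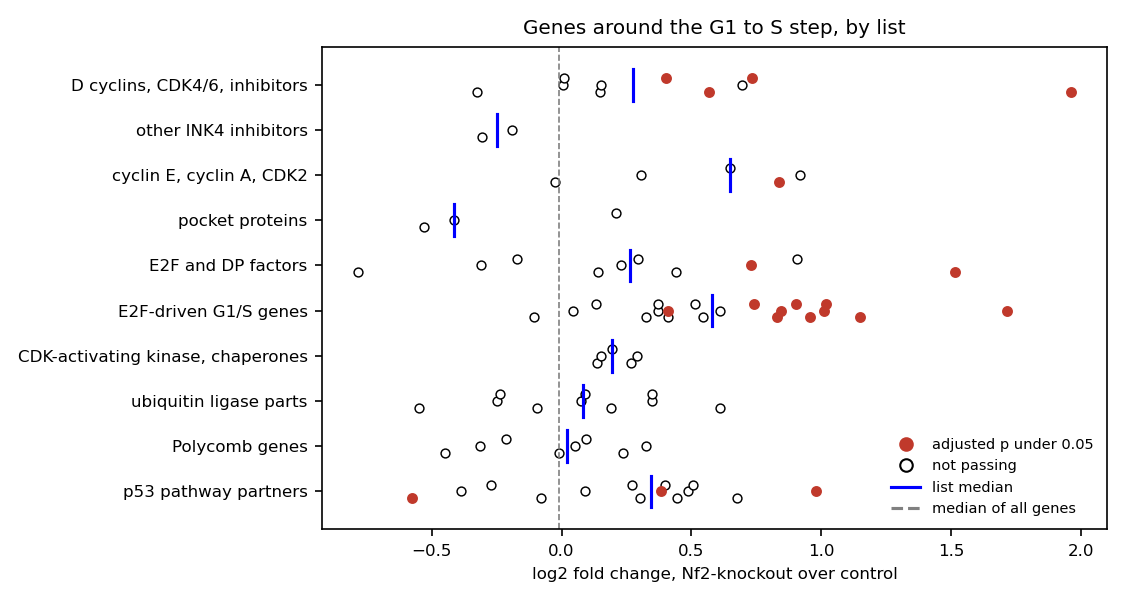
Log2 fold change of Nf2-knockout over control (horizontal axis) for each tested gene of the 10 described genes and of 9 lists of genes around the G1 to S step (rows), filled where the adjusted p was under 0.05, with list medians in blue and the median of all genes tested as a dashed line. The E2F-driven list has 10 of 20 genes filled and a median of 0.58; the ubiquitin ligase, Polycomb and pocket protein rows have none filled.

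The 3 lists of genes that act on the assembly, stability or repression of the 10 genes held no call by edgeR, and the p53 pathway list held calls in both directions. For all genes tested, edgeR called 9.29% (24.8% at an unadjusted p under 0.05) and DESeq2 13.3%. Of 5 genes of the CDK-activating kinase and of CDK4 chaperones, 0 changed by edgeR (3 at an unadjusted p under 0.05, 0 by DESeq2). The highest of these in CPM, the chaperone gene Hsp90ab1, had a log2 fold change of 0.27 (adjusted p = 0.10). Of 10 ubiquitin ligase genes that act on D cyclins or on p27, 0 changed by edgeR (6 at an unadjusted p under 0.05, 2 by DESeq2). Fbxo31, an F-box gene whose product targets cyclin D1, had a value of -0.55 (adjusted p = 0.0932), and Cks1b, a cofactor for the destruction of p27, one of 0.61 (adjusted p = 0.101). Of 8 Polycomb genes known to repress the Cdkn2a locus, 0 changed by edgeR (2 at an unadjusted p under 0.05, 0 by DESeq2), with Rnf2 at -0.45 (adjusted p = 0.0813). Of 14 p53 pathway partners of Cdkn1a and ARF, 2 rose and 1 fell (11 at an unadjusted p under 0.05). The median was 0.34, 10 of the 14 values were positive, and DESeq2 called 6. Bbc3 had a value of 0.68 (adjusted p = 0.0596). Gdf15, a secreted stress-response factor, rose to 45.0 ± 8.51 CPM in Nf2-knockout, against 22.8 ± 2.21 CPM in control libraries (0.98, adjusted p = 0.0130, kept in 6 of 6 fits), and Sesn2 rose by 0.38 (adjusted p = 0.0469, kept in 0 of 6). Sesn1 fell by 0.58 on the log2 scale (adjusted p = 0.0307, kept in 1 of 6). Mdm2, whose product degrades p53, had a value of 0.40 (adjusted p = 0.120).

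Genes around the loci were counted against 9.29% changed by edgeR and 13.3% by DESeq2 over all genes tested. Of 7 tested genes near Ccnd1, 1 rose and 0 fell: Ano1, a chloride channel gene, with a log2 fold change of 1.10 (adjusted p = 0.0363, kept in 0 of 6 fits; DESeq2 called 4 of the 7), while LTO1 had 0.75 (adjusted p = 0.0581). LTO1 shares exon bases with Ccnd1 on the opposite strand. Reads of the shared part cannot be assigned, so the LTO1 value is uncertain to that extent. Tpcn2 had -0.40 (adjusted p = 0.0514) and Mrgprf -0.73 (adjusted p = 0.123), and 4 of the 7 values were positive. The fibroblast growth factor genes Fgf3, Fgf4 and Fgf15 had 0 counts in every library. Of 6 tested genes near Cdkn2a and Cdkn2b, 1 rose, Mllt3, a gene of transcriptional elongation, by 0.76 (adjusted p = 0.0126, kept in 6 of 6 fits), and the nearest gene of the list, Mtap, had 0.27 (adjusted p = 0.166). Cdkn1c is imprinted, and of 9 tested genes of its imprinted region and its flank 1 rose and 1 fell. Tspan32 rose to 2.15 ± 1.12 CPM in Nf2-knockout, against 0.181 ± 0.0587 CPM in control libraries (3.55, adjusted p = 0.0107). H19 fell to 661 ± 113 CPM in Nf2-knockout, against 1138 ± 128 CPM in control libraries (-0.78, adjusted p = 0.0228, kept in 3 of 6 fits), while Kcnq1ot1, the imprinted antisense RNA of the Cdkn1c domain, had -0.30 (adjusted p = 0.303). Of 10 other tested cyclin and kinase genes, 0 rose and 1 fell, Cdk18 (-0.59, adjusted p = 0.0133).

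Markers of other cells moved with these values, and their part in the results was not tested. Over all genes tested, 4.11% rose and 5.18% fell by edgeR. Of 6 markers of proliferating cells, 5 rose and 0 fell, and their summed level was 165 to 213 CPM in Nf2-knockout libraries, against 97.9 to 125 CPM in control libraries, while 0 to 2 of them rose with 1 library left out. Of 10 markers of pericytes and smooth muscle, 3 rose and 1 fell, with sums of 582 to 906 CPM in Nf2-knockout libraries, against 408 to 457 CPM in control libraries. Of 14 macrophage markers, 0 rose and 5 fell (0 to 3 with 1 library left out), with sums of 49.9 to 118 CPM in Nf2-knockout libraries, against 168 to 455 CPM in control libraries. Of 5 tested markers of hypertrophic chondrocytes, 1 rose and 1 fell, with sums of 833 to 2920 CPM in Nf2-knockout libraries, against 8430 to 11900 CPM in control libraries, most of it the collagenase gene Mmp13. Mmp13 was the marker that fell (log2 fold change -2.54, adjusted p = 0.0169, kept in 4 of 6 fits without 1 library). Col10a1, the type X collagen gene that defines hypertrophic chondrocytes, rose to 16.6 ± 3.48 CPM in Nf2-knockout, against 3.25 ± 0.733 CPM in control libraries (2.35, adjusted p = 0.00417, kept in 6 of 6). Col10a1 was the 1 positive value among the 5 tested markers of hypertrophic chondrocytes, whose median log2 fold change was -1.19. No marker of these 4 lists was at 0 throughout a group. Of 5 tested endothelial markers, 1 rose and 0 fell, while 0 to 1 rose with 1 library left out. The 6 endothelial markers summed to 4.67 to 9.12 CPM in Nf2-knockout libraries, against 2.04 to 4.91 CPM in control libraries. Among them Cdh5 had 0 counts in all Nf2-knockout libraries. The 5 skeletal muscle markers summed to at most 2.87 CPM in any library, with Myod1 at 0 counts in all 6 libraries.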

How the data were processed

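Counts and FPKM values came from 1 table with a row per gene, deposited by the authors, with 1 column per library and unit. Tools listed in the submitters' processing notes, with no role given, were HISAT2 2.0.4, StringTie 1.3.4d, cutadapt 1.9 and edgeR; the sources used here name no genome build. The deposited counts are whole numbers, and whether they are reads assigned one by one is not stated. The deposited FPKM equalled the count over the union of a gene's GENCODE M21 exons times 1 factor per library, within 1%, for 94.3% of 12086 genes with at least 100 counts in every library, and the authors wrote a count of 0 as 0.0001. Positions equalled those of GENCODE M21 (GRCm38) for 94.2% of 55141 genes; Ccnd3, Cdk6 and Cdkn2d were among the others.

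Groups and replicate numbers were taken from titles. The main test was edgeR 4.0.16 in R 4.3.3 (filterByExpr, TMM, quasi-likelihood fit on group), two-sided, with Benjamini-Hochberg adjustment over 18218 genes and a threshold of 0.05. The SE was obtained by dividing the size of the log2 fold change by the root of the F statistic, and intervals of 95% use the test's degrees of freedom. Tests were checked on simulated counts. Alternatives were DESeq2 1.42.0, other scalings and filters, robust estimation, a replicate block, limma 3.58.1 on log2(FPKM + 1) and log2(FPKM + 0.1), and leaving out 1 library at a time. The smallest library total was 50906043 counts. Named were the 10 genes, up to 4 genes per list with the smallest p-values and 3 most similar genes per member with a mean FPKM of at least 1, and part of these are printed. A similar gene and a marker list are not reported here. Mdm2, Kcnq1ot1, Col1a1, Sp7 and the markers at 0 counts were added after their values were seen. The members, lists and motifs were chosen with earlier results of these data known.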

Additional observations from a re-analysis of the deposited data

How the results depend on the processing

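Under the 16 alternatives, Ccnd1 and Cdk6 kept direction and call in each. Among 160 pairs of a described gene and an alternative, 139 kept direction and side of the threshold, 14 lost the call (Ccnd2 and Cdkn2b) and 7 changed sign, all of the last with 1 library left out and for genes that did not pass. With 1 library left out, the range was -0.013 to 1.16 for Ccnd3 and -0.063 to 0.069 for Cdk4. It was -0.13 to 0.12 for Cdkn1c and -0.053 to 0.30 for Cdkn2a. Cdkn2d, which is not among the 10 genes or the 160 pairs, also changed sign, with a range of -0.49 to 0.031. The cause of these sign changes was not tested. Of the 10 genes, 2 to 4 were called with 1 library left out: 2 without Nf2-knockout replicate 1 or 3 or any 1 control, and 4 without Nf2-knockout replicate 2. The number of changed genes, 1693, was 629 to 1186 with 1 library left out, 2618 by DESeq2 and 1063 by limma on FPKM without a filter. The main test covered 18218 genes, DESeq2 19709 and that limma fit 27103, and what moved these numbers was not tested. Ranks by level differed for 2 control genes by the median, and for 5 genes in Nf2-knockout and 4 in control libraries per kilobase of the longest coding transcript, a choice made after seeing the data. The difference between groups in the Ccnd1 share of D cyclins was 23.6 to 27.6 percentage points with 1 library left out. The median log2 fold change of all genes was 0.0934 with log2(FPKM + 0.1), against -0.0102 in the main test, and no described gene changed sign with scaling.

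Over all genes tested, deviations of same-numbered libraries correlated at -0.156, 0.0137 and 0.0211. These values cannot settle whether a number marks a shared animal, culture or batch, since each group holds 3 libraries. With the replicate block 923 genes changed, Ccnd2 had 0.40 (adjusted p = 0.0789) and E2F-driven genes called were 5. Ccnd3 had 0.59 with the block (adjusted p = 0.0697), against 0.69 in the main test (adjusted p = 0.461).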
